A study of Mus musculus with 60 samples.

Results

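The genes described here are 8 members of the LIF and STAT3 pathway: the cytokine gene Lif, the receptor genes Lifr and Il6st, the kinase gene Jak1, the transcription factor gene Stat3, the feedback inhibitor gene Socs3 and the target genes Pim1 and Pim3. They were taken by name from a table of 50559 genes, of which 15083 passed the filter on low counts. The filter kept 8 of the 8 members. The table holds polyA RNA sequencing of mouse embryonic stem cells, with 60 libraries in 20 groups of line and time and 3 biological replicates in each group. The Eed knockout and the Ezh2 knockout are Cas9-edited derivatives of the 1A wild-type line, each named as a single line. Each has lost a subunit of Polycomb repressive complex 2 (PRC2), which places the repressive mark H3K27me3. V19 is an independently derived wild-type line. Each line was sampled at 0, 12, 24, 48 and 96 h of 2i, the combination of the GSK3 inhibitor CHIR99021 at 3 μM and the MEK inhibitor PD0325901 at 1 μM, which was exchanged daily. Cells of all groups were grown on gelatin in medium with fetal bovine serum and added LIF protein. The labels do not say whether serum or LIF was kept once the inhibitors were added. The labels call the replicates biological and do not say whether they were separate cultures, so p-values measure the spread between these samples only.

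LIF binds the receptor chain encoded by Lifr, which pairs with gp130, the shared signalling chain encoded by Il6st. JAK kinases bound to the receptor phosphorylate STAT3, which enters the nucleus and activates target genes. Socs3, one of these targets, encodes a protein that binds gp130 and JAK and damps the signal. In mouse embryonic stem cells LIF sustains self-renewal through STAT3, and Pim1 and Pim3 encode serine/threonine kinases whose genes are STAT3 targets in these cells. RNA levels of these genes do not measure the phosphorylation of STAT3 or the activity of the pathway.

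The regions upstream of Socs3, Pim1 and Pim3, the members named above as STAT3 targets, are shown. These 3 genes were lower at 12 h of 2i in 1A wild-type cells, as was Lifr, whose upstream regions are not shown. The sequences are the 250 bases before the annotated start, from RefSeq on build GRCm38.p6, read 5′ to 3′ on the gene's strand; the build differs from the GRCm39 build of the count table. Capitals mark a match to TTCNNNGAA, the palindromic core bound by STAT factors, which reads the same on both strands.
Socs3, chr11:117969367-117969616, minus strand: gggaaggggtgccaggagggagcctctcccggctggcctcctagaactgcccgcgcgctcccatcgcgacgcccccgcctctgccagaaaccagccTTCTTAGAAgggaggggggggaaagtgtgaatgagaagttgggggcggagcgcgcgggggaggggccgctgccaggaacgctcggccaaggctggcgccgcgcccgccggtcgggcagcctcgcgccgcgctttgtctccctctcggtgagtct
Pim1, chr17:29490535-29490784, plus strand, upstream window of its first listed start: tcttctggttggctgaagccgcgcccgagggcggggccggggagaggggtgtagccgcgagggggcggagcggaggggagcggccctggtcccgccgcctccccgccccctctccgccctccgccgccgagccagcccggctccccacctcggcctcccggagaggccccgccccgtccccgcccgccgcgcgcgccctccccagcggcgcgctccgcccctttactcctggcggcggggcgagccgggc
Pim3, chr15:88861944-88862193, plus strand: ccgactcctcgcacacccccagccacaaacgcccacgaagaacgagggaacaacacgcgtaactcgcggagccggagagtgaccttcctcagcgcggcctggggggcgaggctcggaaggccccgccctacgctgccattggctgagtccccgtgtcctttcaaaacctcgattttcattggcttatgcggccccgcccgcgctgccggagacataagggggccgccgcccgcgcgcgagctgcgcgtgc
The 8 members had 10 such windows, and 1 of the 10, that of Socs3, held TTCNNNGAA, as TTCTTAGAA with its first base 154 bases before the start. Among all 32851 windows of the same length, 7.02% held it. The stricter form TTCCNGGAA, found in 0.913% of all windows, was in none of the 10. A match is a description of letters and does not show binding, and its absence says only that these letters are not in this window.

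On GRCm39, as the count table gives the genes, Lif lies at chr11:4207568-4222514 on the plus strand, Lifr at chr15:7120091-7226970 on the plus strand and Il6st at chr13:112600604-112643394 on the plus strand. Jak1 lies at chr4:101009171-101122493 on the minus strand and Stat3 at chr11:100777632-100830447 on the minus strand. Socs3 lies at chr11:117856905-117860192 on the minus strand, Pim1 at chr17:29709759-29715085 on the plus strand and Pim3 at chr15:88746397-88749929 on the plus strand. Counts are over annotated exons. Exons of Jak1 overlap those of Raver2 on the opposite strand over 6.57% of their length, those of Stat3 overlap Gm46295 over 7.95%, those of Pim1 overlap Gm26885 over 6.67%, and those of Pim3 overlap Gm33049 on the same strand over 11.9%. The strand setting of the counting is not given in the sources used here, so reads of the opposite-strand partners cannot be told apart from those of the members in these stretches.

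Libraries held 2561169 to 11065948 assigned reads, with a median of 6055990. Levels are given in CPM, counts scaled to the size of the library. The targeted genes matched the labels in every library: Ezh2 ranged over 14.5 to 19.9 CPM across Ezh2 knockout libraries, against 193.6 to 277.1 CPM for 1A wild type. Eed ranged over 15.3 to 28.2 CPM across Eed knockout libraries, against 245.6 to 392.7 CPM for 1A wild type. The 8 embryonic stem cell markers summed to 2952 to 5442 CPM in Eed knockout libraries and 5453 to 8850 CPM in 1A wild type. The 10 primitive endoderm markers summed to 1792 to 4418 CPM in the Eed knockout, against 403.0 to 848.2 CPM in 1A wild type. Most of the Eed knockout sum came from Sparc, Col4a1 and Lama1, with means of 1173, 1122 and 552.2 CPM. The 10 trophoblast markers summed to 1641 to 5813 CPM in the Eed knockout, against 228.9 to 754.7 CPM in 1A wild type. Most of the Eed knockout sum came from the keratin genes Krt18, Krt8 and Krt7, with means of 1606, 1469 and 269.0 CPM. Eomes averaged 13.3 CPM there, 13.5 CPM in the Ezh2 knockout and 7.11 CPM in 1A wild type. The 10 fibroblast or feeder markers summed to 17.6 to 37.1 CPM in the Eed knockout, against 4.88 to 18.3 CPM in 1A wild type, where Fap was at 0 in every library. Within each line the sums also moved over 2i. In the Eed knockout the trophoblast markers averaged 1934, 3196, 4676, 5431 and 2962 CPM at 0, 12, 24, 48 and 96 h, and the primitive endoderm markers 4329, 2627, 3558, 3056.5 and 1870 CPM. At the same times the trophoblast markers averaged 253.5, 285.4, 399.7, 737.1 and 379.0 CPM in 1A wild type. They averaged 352.0 CPM at 48 h in the Ezh2 knockout, against 181.5 CPM at 0 h, and 252.7 CPM in V19, against 88.0 CPM at 0 h. The trophoblast sums were highest at 48 h in every line. At 0 h the other lines also differed from 1A wild type. The primitive endoderm markers summed to 914 to 991 CPM in the Ezh2 knockout, against 501.0 to 556.0 CPM in 1A wild type. The trophoblast markers summed to 178.6 to 186.4 CPM in the Ezh2 knockout and 84.1 to 93.5 CPM in V19, against 228.9 to 280.8 CPM in 1A wild type. Every comparison below, the 2i responses included, carries such differences in marker sums, and their part in the members' values was not tested. In bulk RNA, fewer cells of a type and less RNA per cell cannot be told apart. From their own group, 6 libraries stood apart, deviating by over 0.3 log2 units (root mean square; the median library deviated by 0.226). They were 1A wild type 24 h replicate 1 and 48 h replicate 3, V19 48 h replicates 2 and 3, and Eed knockout 12 h replicates 1 and 3. Without them, 1 library was left for V19 at 48 h and 1 for the Eed knockout at 12 h.

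Over the 2i course the receptor gene Lifr fell at every time in every line. The STAT3 targets Socs3, Pim1 and Pim3 fell in most comparisons with 0 h, though not in all. Jak1 and Lif rose at some times, Jak1 was lower at 12 h in the Eed knockout, and Il6st and Stat3 changed at few times. These calls are from the edgeR quasi-likelihood test (Benjamini-Hochberg adjusted p under 0.05 over 15083 genes). Of the 32 pairs of member and time in a line, 20 changed in the Eed knockout, 21 in the Ezh2 knockout, 18 in V19 wild type and 21 in 1A wild type. These shares stand against a large background, since 39.7% to 53.0% of all genes tested changed against 0 h across the 16 comparisons. The labels list no untreated culture at the later times, so effects of 2i and of time in culture cannot be told apart.
In the Eed knockout, 6, 6, 5 and 3 of the 8 members changed at 12, 24, 48 and 96 h, where 50.3%, 41.1%, 49.2% and 39.7% of all genes did. At the same times 6, 4, 6 and 5 members changed in the Ezh2 knockout, beside 50.1%, 46.7%, 49.1% and 42.8% of all genes. For V19 wild type the counts were 3, 4, 6 and 5, beside 42.3%, 40.4%, 50.8% and 47.5%. For 1A wild type they were 5, 5, 6 and 5, beside 40.8%, 46.4%, 53.0% and 48.6%. Most of these counts lay above the matching share of all genes, but with 8 members each call moves the share far. The counts were not tested against the background, so nothing is drawn from them. By direction, 1 member was higher and 4 were lower in 1A wild type at 96 h, where 25.1% of all genes were higher and 23.5% lower. The members' median log2 fold change in 1A wild type was -0.24 at 12 h and at 24 h, -0.50 at 48 h and -0.19 at 96 h. Medians over all genes in this line were 0.02 at 12, 48 and 96 h and 0.03 at 24 h. In the Eed knockout, the Ezh2 knockout and V19 the members' medians were -0.58, -0.38 and -0.21 at 12 h. At 96 h these medians were 0.13, -0.08 and -0.19.

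**Figure D1:**
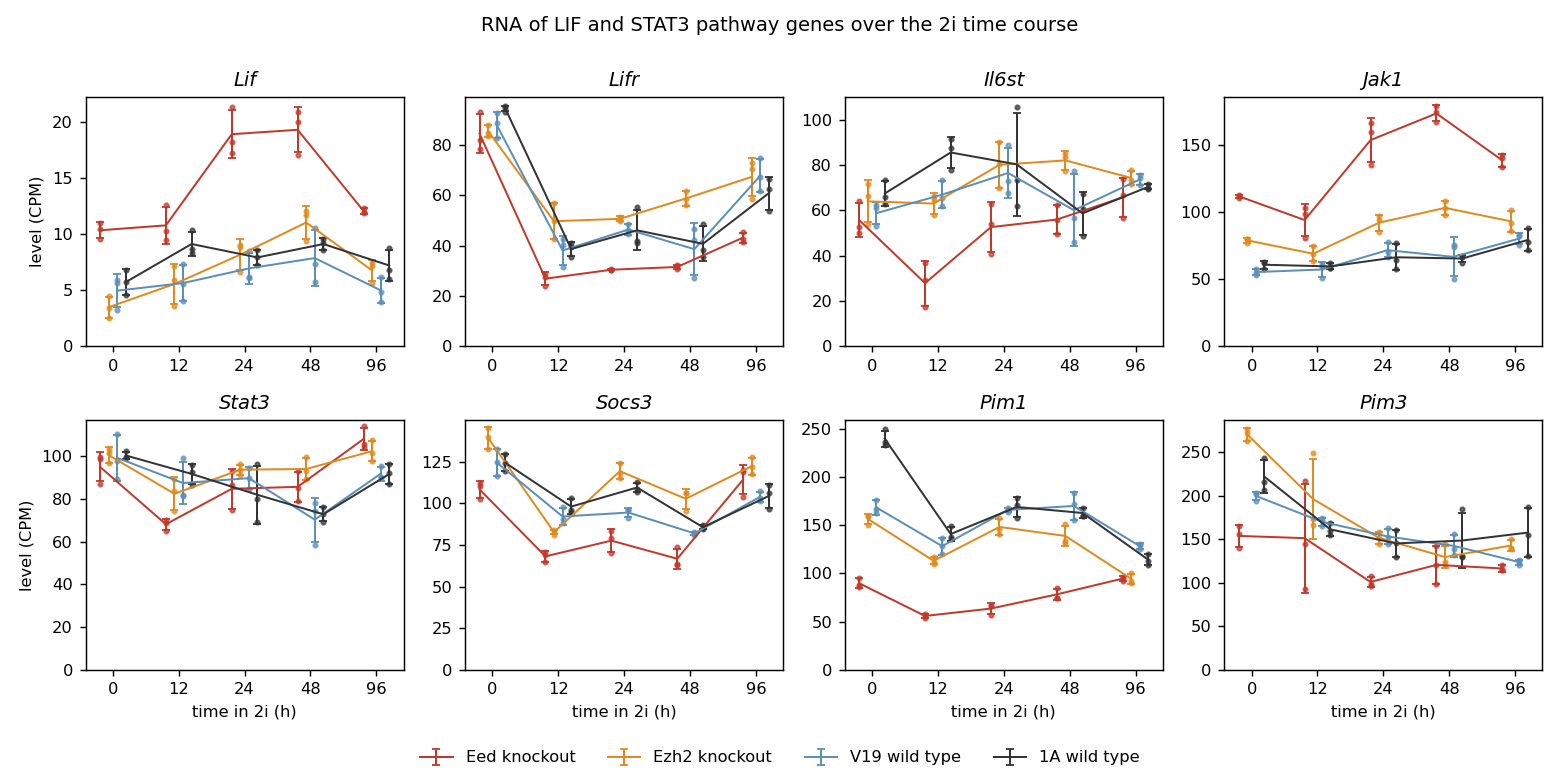
Levels of the 8 genes in CPM (y axes, linear, starting at 0) at 0, 12, 24, 48 and 96 h of 2i (x axes, evenly spaced) in 4 lines; points are libraries, lines join group means and bars are SD (n = 3). Lifr drops in all 4 lines by 12 h, Pim1 starts at 239.7 CPM in 1A wild type and at 89.8 CPM in the Eed knockout, and Jak1 and Lif are highest in the Eed knockout.

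**Figure D2:**
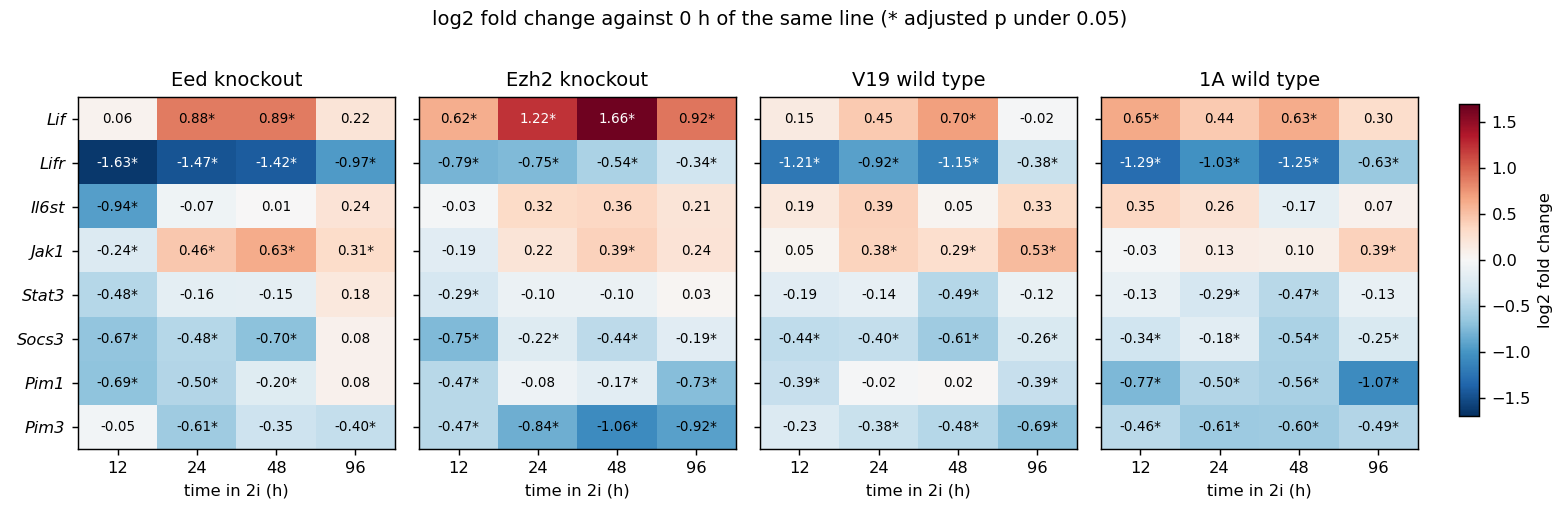
Log2 fold change of each gene (rows) at each time of 2i (columns) against 0 h of the same line, with the value printed in each cell, an asterisk where the adjusted p was under 0.05, and red for higher and blue for lower. Lifr has an asterisk in all 16 cells and ranges from -1.63 to -0.34.

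Lif encodes the cytokine itself, so its RNA reports what the cells make beside the LIF added to the medium. It was the member with the lowest counts, 15 to 243 reads a library. Lif in 1A wild type had 8.66, 10.4 and 8.32 CPM at 12 h, against 5.76, 6.85 and 4.57 CPM at 0 h, a log2 fold change of 0.65 ± 0.22 (SE, adjusted p = 0.0145). Ezh2 knockout cells reached 12.0, 11.7 and 9.35 CPM at 48 h, against 2.57, 3.43 and 4.46 CPM at 0 h, and the ranges did not overlap. This was its largest response in any line, with a log2 fold change of 1.66 ± 0.22 and an adjusted p of 1.1e-08. In the Eed knockout Lif had 20.01, 17.02 and 20.85 CPM at 48 h, against 11.0, 10.4 and 9.60 CPM at 0 h (log2 fold change 0.89 ± 0.18, adjusted p = 3.2e-05). The groups did not overlap. Trophoblast marker sums were also highest at 48 h in this line, as in every other line, and their part was not tested. In the authors' RUV-normalized values the Eed knockout calls missed the threshold at 48 h (0.41, adjusted p = 0.152) and 24 h (0.55, adjusted p = 0.0596; limma-trend). In V19 wild type Lif had 7.34, 5.71 and 10.6 CPM at 48 h, against 5.68, 3.27 and 5.95 CPM at 0 h; the groups overlapped. That call, at 0.70 ± 0.25, was lost without V19 48 h replicate 3 (0.42, adjusted p = 0.24) or V19 0 h replicate 2 (0.49, adjusted p = 0.122). The 12 h call of 1A wild type was lost without 0 h replicate 3 (0.54, adjusted p = 0.0646) or 12 h replicate 2 (0.54, adjusted p = 0.0834). The 48 h call of 1A wild type was lost without 0 h replicate 3 (0.52, adjusted p = 0.0681) or 48 h replicate 2 (0.60, adjusted p = 0.0583). The 12 h call of the Ezh2 knockout was lost without 0 h replicate 1 or 2 or 12 h replicate 2 or 3 (adjusted p 0.0736 to 0.138). With each comparison's groups alone the Ezh2 knockout call at 12 h (0.60, adjusted p = 0.106) and the V19 call at 48 h (0.69, adjusted p = 0.0915) were lost. The V19 call was also lost with RUV values (0.46, adjusted p = 0.0776). Without the libraries that stood apart, which left 1 V19 library at 48 h, the V19 value was 0.55. With the trend of expression on exon length removed, 1A wild type passed at 24 h (0.49, adjusted p = 0.0415).

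Lifr, the LIF-binding receptor chain, fell at every time in every line, the one member to do so. In the Eed knockout it had 24.2, 28.9 and 27.7 CPM at 12 h, against 82.2, 78.3 and 93.2 CPM at 0 h. Ezh2 knockout libraries had 42.5, 49.9 and 56.9 CPM at 12 h, against 85.0, 88.1 and 83.6 CPM at 0 h. Lifr in 1A wild type had 35.6, 39.3 and 41.2 CPM at 12 h, against 95.4, 93.3 and 94.9 CPM at 0 h. All 12 h libraries lay below all 0 h libraries of their line, V19 included.
The log2 fold change at 12 h was -1.63 ± 0.12 in the Eed knockout (adjusted p = 1.0e-15), -0.79 ± 0.11 in the Ezh2 knockout (adjusted p = 7.2e-08), -1.21 ± 0.12 in V19 wild type (adjusted p = 4.1e-12) and -1.29 ± 0.12 in 1A wild type (adjusted p = 5.6e-13). At 96 h, still below 0 h, Lifr averaged 43.2 ± 2.0 CPM in the Eed knockout, 67.4 ± 7.6 CPM in the Ezh2 knockout, 67.8 ± 6.6 CPM in V19 and 60.9 ± 6.5 CPM in 1A wild type (SD, n = 3 each). The 96 h change in the Ezh2 knockout, -0.34 ± 0.11, was lost without its 96 h replicate 1 (-0.26, adjusted p = 0.0908).

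Il6st, the gene of the shared signalling chain gp130, changed in 1 of its 16 comparisons with 0 h, that of the Eed knockout at 12 h. There it had 17.3, 29.5 and 36.9 CPM at 12 h, against 52.8, 50.3 and 64.4 CPM at 0 h, and the ranges did not overlap. The log2 fold change was -0.94 ± 0.18 (adjusted p = 1.7e-05). At the same time Il6st had 57.9, 64.7 and 66.6 CPM in the Ezh2 knockout, 65.7, 73.5 and 61.8 CPM in V19 wild type and 91.5, 87.4 and 77.9 CPM in 1A wild type. By 24 h it had 62.9, 54.2 and 40.9 CPM in the Eed knockout, which overlapped the 0 h libraries. Its 12 h replicates 1 and 3 are libraries that stood apart, and replicate 1, with 3356091 reads, held the lowest level; with both left out, so that 1 library stood for the group, the log2 fold change was -0.92. Corrected for each library's trend of expression on exon length, the change was -0.80. For 1A wild type the 12 h value of 0.35 ± 0.16 missed the threshold (adjusted p = 0.0795) and passed it after that length correction (0.43, adjusted p = 0.0040) and with the groups compared alone (0.36, adjusted p = 1.4e-04). Under the 9 other processing settings Il6st was called higher in the Ezh2 knockout at 48 h in 5 and at 24 h in 3. In V19 it was so called at 24 h in 4 and at 96 h in 3, and in 1A wild type at 12 h in 4 and at 24 h in 1. Calls also appeared without 1A 24 h replicate 3 at 24 h (0.41, adjusted p = 0.0493), without V19 24 h replicate 2 at 24 h (0.47, adjusted p = 0.0355) and without Ezh2 knockout 0 h replicate 3 at 48 h (0.44, adjusted p = 0.0444).

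Jak1 encodes the main JAK kinase of gp130 receptors. It rose in 8 of its 16 comparisons with 0 h, at 96 h alone in 1A wild type. In V19 wild type it had 83.2, 82.2 and 75.5 CPM at 96 h, against 57.6, 53.4 and 55.0 CPM at 0 h, and in 1A wild type 88.3, 71.6 and 78.0 CPM at 96 h, against 62.2, 57.6 and 62.7 CPM at 0 h. The log2 fold changes were 0.53 ± 0.11 in V19 (adjusted p = 3.5e-05) and 0.39 ± 0.10 in 1A wild type (adjusted p = 0.00175). The Eed knockout had the highest Jak1 levels, with 179.0, 174.2 and 167.1 CPM at 48 h, against 111.9, 110.6 and 112.9 CPM at 0 h. This was a log2 fold change of 0.63 ± 0.10 (adjusted p = 3.2e-07). Of the 8 calls, 6 missed the threshold in the RUV-normalized values. These were the Eed knockout at 24 h (0.20, adjusted p = 0.131), 48 h (0.22, adjusted p = 0.0695) and 96 h (0.058, adjusted p = 0.702). The others were the Ezh2 knockout at 48 h (0.20, adjusted p = 0.0863) and V19 at 24 h (0.22, adjusted p = 0.0667) and 48 h (0.094, adjusted p = 0.43). At 12 h Jak1 was lower in the Eed knockout, at -0.24 ± 0.10 (adjusted p = 0.0418). This call was lost without any 1 of its libraries other than 12 h replicate 3 (adjusted p 0.0534 to 0.273). It was also lost with groups alone, no filter or the length trend removed (adjusted p 0.0821 to 0.316). Without the libraries apart, which left 1 Eed knockout library at 12 h, the value was -0.19. The V19 call at 48 h was lost without 0 h replicate 2 or 3 or 48 h replicate 1 or 3 (adjusted p 0.055 to 0.195), with groups alone (adjusted p = 0.191) and with no filter (adjusted p = 0.0904). With the length trend removed, 1A wild type passed at 24 h (0.19, adjusted p = 0.0304) and 48 h (0.23, adjusted p = 0.00799). In the Ezh2 knockout Jak1 missed the threshold at 24 h and 96 h and passed it without 24 h replicate 2 (0.28, adjusted p = 0.0399) and 96 h replicate 1 (0.28, adjusted p = 0.038). It also passed at both times with groups alone or without the libraries apart (adjusted p 0.0194 to 0.0296) and at 96 h with the length trend removed (adjusted p = 0.011). At 12 h it passed without the libraries apart (-0.19, adjusted p = 0.0437).

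Stat3, the transcription factor at the end of the cascade, was the steadiest member: its 20 group means spanned a ratio of 1.59, from 68.1 ± 2.6 CPM in the Eed knockout at 12 h to 108.0 ± 5.4 CPM in the Eed knockout at 96 h (SD, n = 3). It was lower in both wild-type lines at 48 h, with 74.3, 58.6 and 77.9 CPM against 110.5, 89.4 and 97.7 CPM at 0 h in V19, and 73.0, 69.3 and 76.0 CPM against 99.3, 99.5 and 102.3 CPM at 0 h in 1A. The log2 fold changes were -0.49 ± 0.10 (adjusted p = 4.9e-05) in V19 and -0.47 ± 0.10 (adjusted p = 7.0e-05) in 1A wild type. At 12 h Stat3 was lower in both knockouts, -0.48 ± 0.10 in the Eed knockout (adjusted p = 4.6e-05) and -0.29 ± 0.09 in the Ezh2 knockout (adjusted p = 0.00804), where 1A wild type had -0.13 ± 0.09 (adjusted p = 0.291). The difference between the 12 h responses missed the threshold in either knockout, with adjusted p of 0.0821 for Eed and 0.649 for Ezh2. That for Eed passed with the length trend removed (-0.31, adjusted p = 0.0377) and with genes of a mean of at least 1 CPM (-0.40, adjusted p = 0.0405). Without the libraries apart, which left 1 Eed knockout library at 12 h, it was -0.43. The Ezh2 knockout call at 12 h was lost without its 12 h replicate 1 (-0.22, adjusted p = 0.0803), and the 24 h call of 1A wild type, -0.29 ± 0.09, without 24 h replicate 2 (-0.18, adjusted p = 0.145). In V19 the 12 h change passed without 0 h replicate 2 (-0.25, adjusted p = 0.0493) or 12 h replicate 2 (-0.28, adjusted p = 0.0256). The Ezh2 knockout call at 12 h was also lost with no filter (adjusted p = 0.061) and the 24 h call of 1A wild type with groups alone (adjusted p = 0.081). With the length trend removed Stat3 also passed in the Eed knockout at 24 h (-0.21) and 48 h (-0.22) and in V19 at 24 h (-0.21) and 96 h (-0.20). With genes of a mean of at least 1 CPM it passed in the Eed knockout at 24 h (-0.23).

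Socs3, the feedback inhibitor of the pathway, fell in 15 of the 16 comparisons with 0 h. It had 70.8, 69.0 and 64.5 CPM at 12 h in the Eed knockout, against 110.3, 112.3 and 102.3 CPM at 0 h. Ezh2 knockout libraries had 82.9, 81.2 and 83.9 CPM at 12 h, against 132.5, 139.9 and 145.4 CPM at 0 h. Socs3 in 1A wild type had 103.3, 94.5 and 96.2 CPM at 12 h, against 129.6, 124.1 and 119.3 CPM at 0 h. None of these pairs of groups overlapped.
The 12 h log2 fold changes were -0.67 ± 0.07 in the Eed knockout (adjusted p = 5.8e-11), -0.75 ± 0.07 in the Ezh2 knockout (adjusted p = 2.9e-13), -0.44 ± 0.07 in V19 (adjusted p = 1.1e-06) and -0.34 ± 0.07 in 1A wild type (adjusted p = 7.5e-05). At 96 h the Eed knockout had 104.0, 118.6 and 120.0 CPM, which overlapped its 0 h libraries, and a log2 fold change of 0.08 ± 0.07 (adjusted p = 0.404). The smallest calls, in 1A wild type at 24 h (-0.18 ± 0.07) and in the Ezh2 knockout at 96 h (-0.19 ± 0.07), were lost on leaving out single libraries. The first was lost without 0 h replicate 1 (-0.16, adjusted p = 0.108), 24 h replicate 2 (-0.17, adjusted p = 0.0838) or 24 h replicate 3 (-0.19, adjusted p = 0.0556). The second was lost without 0 h replicate 2 or 3 or 96 h replicate 2 or 3 (adjusted p 0.0513 to 0.102). The first was also lost with RUV values (-0.15, adjusted p = 0.09) and with groups alone (-0.19, adjusted p = 0.102). With no filter both were lost, as were the calls in the Ezh2 knockout at 24 h and in both wild-type lines at 96 h (adjusted p 0.0633 to 0.31).

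Pim1, a kinase gene and STAT3 target, was highest at 0 h in 1A wild type. There it had 112.6, 120.5 and 109.2 CPM at 96 h, against 233.6, 235.9 and 249.5 CPM at 0 h. In V19 wild type it had 129.6, 130.4 and 124.9 CPM at 96 h, against 166.7, 162.2 and 176.6 CPM at 0 h. In the Eed knockout it had 95.1, 96.8 and 92.1 CPM at 96 h, against 95.5, 88.3 and 85.6 CPM at 0 h, and these groups overlapped.
The 96 h log2 fold changes were 0.08 ± 0.07 in the Eed knockout (adjusted p = 0.435), -0.73 ± 0.07 in the Ezh2 knockout (adjusted p = 1.9e-12), -0.39 ± 0.07 in V19 (adjusted p = 7.0e-06) and -1.07 ± 0.07 in 1A wild type (adjusted p = 2.0e-18). At 12 h Pim1 was lower in every line, with log2 fold changes of -0.69 ± 0.08 in the Eed knockout, -0.47 ± 0.07 in the Ezh2 knockout, -0.39 ± 0.07 in V19 and -0.77 ± 0.07 in 1A wild type, with adjusted p from 3.3e-13 to 8.4e-06. In V19 it had 167.6, 167.0 and 163.3 CPM at 24 h, within the range of its 0 h libraries. The small calls at 48 h, -0.20 ± 0.07 in the Eed knockout and -0.17 ± 0.07 in the Ezh2 knockout, were each lost on leaving out single libraries: 0 h replicate 1 (-0.16, adjusted p = 0.121) and 48 h replicates 1 and 2 (both -0.17) in the first. In the second these were 0 h replicates 1 and 3 and 48 h replicates 2 and 3 (adjusted p 0.0851 to 0.143). In the RUV-normalized values the first was 0.052 (adjusted p = 0.63) and the second -0.026 (adjusted p = 0.811). With no filter both were lost (adjusted p 0.196 and 0.338). In the RUV-normalized values Pim1 was called higher in the Eed knockout at 96 h (0.29, adjusted p = 0.00124) and in V19 at 48 h (0.17, adjusted p = 0.0369).

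Pim3 encodes the second kinase target and had the highest level per length of the members. It fell in all 4 lines, most in the Ezh2 knockout, where it had 144.6, 120.3 and 123.6 CPM at 48 h, against 271.5, 276.7 and 262.4 CPM at 0 h (log2 fold change -1.06 ± 0.15, adjusted p = 6.7e-08). Pim3 in 1A wild type had 129.8, 145.7 and 160.0 CPM at 24 h, against 206.5, 243.1 and 215.7 CPM at 0 h (-0.61 ± 0.15, adjusted p = 8.2e-04). In V19 it had 120.9, 123.3 and 126.6 CPM at 96 h, against 194.1, 201.9 and 203.1 CPM at 0 h (-0.69 ± 0.16, adjusted p = 2.2e-04). Within these pairs no library of the earlier time lay in the range of the later one.
In the Eed knockout at 12 h the replicates spread from 92.3 to 216.7 CPM, and the change of -0.05 ± 0.15 (adjusted p = 0.827) became -0.38 (adjusted p = 0.0319) without replicate 1, the library with the lowest Il6st. Other Pim3 calls were lost on leaving out 1 library: in 1A wild type the 12 h change of -0.46 ± 0.15 was lost without 0 h replicate 2 (-0.39, adjusted p = 0.0705) or 12 h replicate 1 (-0.43, adjusted p = 0.0505). Its 96 h change of -0.49 ± 0.15 was lost without 96 h replicate 3 (-0.38, adjusted p = 0.0623). In the Ezh2 knockout the 12 h change of -0.47 ± 0.15 was lost without 12 h replicate 1 (-0.36, adjusted p = 0.0726) or 12 h replicate 2 (-0.38, adjusted p = 0.059). The V19 change at 24 h, -0.38 ± 0.15, was lost on leaving out any 1 of its 6 libraries (adjusted p 0.0514 to 0.129). The Eed knockout change at 96 h, -0.40 ± 0.15, was lost without any 1 of its libraries other than 0 h replicate 3 (adjusted p 0.0512 to 0.113). Its 48 h change passed without 0 h replicate 3 (-0.42, adjusted p = 0.0436) or 48 h replicate 3 (-0.48, adjusted p = 0.02), and in 5 of the 9 other processing settings (-0.42 to -0.36, adjusted p 0.00211 to 0.022). The Eed knockout call at 96 h and the V19 call at 24 h were also lost with RUV values (adjusted p = 0.131 and 0.0806). The V19 change at 48 h was -0.48 with all libraries. Without the libraries apart, which left 1 V19 library at 48 h, it was -0.36. In V19 the 12 h change passed with groups alone (-0.24, adjusted p = 0.00735).

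Before 2i, in serum and LIF, the Eed knockout differed from its 1A wild-type parent in 5 of the 8 members, where 49.6% of all genes differed: 2 were higher (26.4% of all genes were) and 3 lower (23.3%). Lif and Jak1 were higher, and Socs3, Pim1 and Pim3 lower. Pim1 had 95.5, 88.3 and 85.6 CPM in the Eed knockout, against 233.6, 235.9 and 249.5 CPM in 1A wild type, a log2 fold change of -1.41 ± 0.07 (adjusted p = 7.9e-23) that was -0.57 in the authors' RUV-normalized values. Jak1 had 111.9, 110.6 and 112.9 CPM in the Eed knockout, against 62.2, 57.6 and 62.7 CPM in 1A wild type (0.88 ± 0.10, adjusted p = 3.3e-10). Lif had 11.0, 10.4 and 9.60 CPM in the Eed knockout, against 5.76, 6.85 and 4.57 CPM in 1A wild type (0.82 ± 0.21, adjusted p = 0.00106). No library of one line lay in the range of the other for these 3 genes.
Pim3 was lower at -0.53 ± 0.15 (adjusted p = 0.00326) and Socs3 at -0.20 ± 0.07 (adjusted p = 0.0146). The Socs3 call was lost without 1A 0 h replicate 1 (-0.17, adjusted p = 0.081) or Eed knockout 0 h replicate 3 (-0.16, adjusted p = 0.0881) and with no filter (adjusted p = 0.238). With the length trend removed Lifr (-0.23, adjusted p = 0.00936) and Il6st (-0.33, adjusted p = 0.0273) passed as lower, and Il6st also with groups alone (-0.23, adjusted p = 0.0293). In the RUV-normalized values, whose factors are not described in the sources used here, Jak1 was at 0.08, Lif at -0.09, Socs3 at 0.09 and Pim3 at -0.13, none of them past the threshold. In the same libraries the primitive endoderm markers summed to 4225 to 4418 CPM in the Eed knockout and 501.0 to 556.0 CPM in 1A wild type, and their part in these differences was not tested.

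In the Ezh2 knockout at 0 h, 3 of 8 members differed from 1A wild type, beside 22.8% of all genes: 1 was higher (11.9% of all genes) and 2 were lower (10.9%). Pim1 was lower, with 159.8, 150.4 and 159.9 CPM in the Ezh2 knockout, against 233.6, 235.9 and 249.5 CPM in 1A wild type (-0.61 ± 0.07, adjusted p = 5.6e-10). Jak1 was higher, with 77.1, 80.1 and 79.7 CPM, against 62.2, 57.6 and 62.7 CPM in 1A wild type (0.38 ± 0.10, adjusted p = 0.00453). Lif was lower at -0.73 ± 0.25 (adjusted p = 0.0279), a call lost without Ezh2 knockout replicate 1 (-0.58, adjusted p = 0.135), Ezh2 knockout replicate 2 (-0.71, adjusted p = 0.0806), 1A replicate 1 (-0.75, adjusted p = 0.0662) or 1A replicate 2 (-0.59, adjusted p = 0.165). Pim3 passed as higher with groups alone (0.27, adjusted p = 6.3e-04) and without the libraries apart (0.28, adjusted p = 0.0325). V19 wild type differed from 1A in 1 member, beside 10.5% of all genes, and that was again Pim1, with 166.7, 162.2 and 176.6 CPM in V19 (-0.51 ± 0.07, adjusted p = 3.1e-07). At 0 h Pim1 was thus higher in 1A wild type than in the 3 lines set against it, and all these comparisons share the same 1A libraries.

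**Figure D3:**
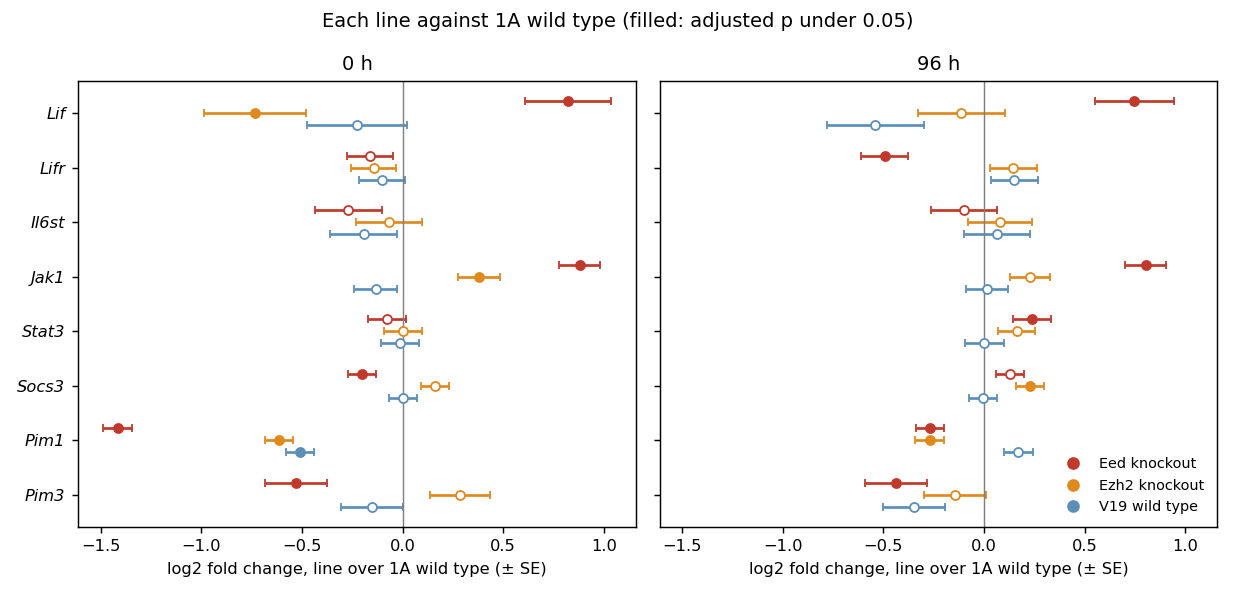
Log2 fold change (x axis, ± SE) of each gene in the Eed knockout, the Ezh2 knockout and V19 wild type over 1A wild type at 0 h (left) and 96 h (right); filled points had an adjusted p under 0.05. At 0 h Pim1 lies at -1.41, -0.61 and -0.51 in the 3 lines, and Jak1 at 0.88 in the Eed knockout.

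At 96 h of 2i the Eed knockout differed from 1A wild type in 6 of 8 members, beside 55.3% of all genes. Jak1 had 142.3, 133.2 and 140.0 CPM in the Eed knockout, against 88.3, 71.6 and 78.0 CPM in 1A wild type (0.80 ± 0.10, adjusted p = 1.5e-09). Lifr had 42.7, 41.6 and 45.4 CPM in the Eed knockout, against 66.4, 62.6 and 53.7 CPM in 1A wild type (-0.49 ± 0.12, adjusted p = 4.0e-04). Lif was higher by 0.75 ± 0.20 and Stat3 by 0.24 ± 0.09, and Pim1 was at -0.27 ± 0.07 and Pim3 at -0.44 ± 0.15. In the RUV-normalized values Jak1 was at -0.15, Lif at -0.39, Lifr at 0.07, Pim3 at 0.03 and Pim1 at 0.71, all with the sign turned, and Pim1 past the threshold (adjusted p = 6.4e-11). The Stat3 call was lost without 1A 96 h replicate 1 (0.24, adjusted p = 0.0528), 1A 96 h replicate 3 (0.20, adjusted p = 0.104) or Eed knockout 96 h replicate 3 (0.20, adjusted p = 0.107). The Pim3 call was lost without 1A 96 h replicate 2 (-0.30, adjusted p = 0.135). Socs3 passed without Eed knockout 96 h replicate 1 (0.20, adjusted p = 0.0257) and with RUV values (0.45, adjusted p = 2.1e-06). With no filter the Pim1 and Stat3 calls were lost (adjusted p = 0.0739 and 0.0835).
In the Ezh2 knockout at 96 h, 2 of 8 members differed, beside 13.2% of all genes: Pim1 was lower at -0.27 ± 0.07 (adjusted p = 0.00665) and Socs3 higher by 0.23 ± 0.07 (adjusted p = 0.0207). Socs3 had 127.6, 117.3 and 121.9 CPM in the Ezh2 knockout, against 110.7, 106.0 and 96.4 CPM in 1A wild type. The Pim1 call was lost without 1A 96 h replicate 2 (-0.23, adjusted p = 0.0544), and the Socs3 call without 1A 96 h replicate 3 (0.17, adjusted p = 0.148), Ezh2 knockout 96 h replicate 1 (0.19, adjusted p = 0.113) or Ezh2 knockout 96 h replicate 3 (0.23, adjusted p = 0.059). With no filter both were lost (adjusted p = 0.161 and 0.328). The Socs3 call was also lost with groups alone (0.21, adjusted p = 0.0987) and with the length trend removed (0.18, adjusted p = 0.0567). Jak1 passed with the length trend removed (0.25, adjusted p = 0.00776). Between V19 and 1A wild type none of the 8 members passed at 96 h, beside 7.45% of all genes (edgeR). At an unadjusted p under 0.05 there were 3 (Lif, Pim1 and Pim3), and DESeq2 called 0. Pim3, with 120.9, 123.3 and 126.6 CPM in V19 and 155.2, 187.1 and 130.4 CPM in 1A wild type, had a log2 difference of -0.35 ± 0.16 (adjusted p = 0.177), which passed with groups alone, no filter or without the libraries apart (adjusted p 0.00724 to 0.0226).

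Whether a line responded differently to 2i was tested by the difference between its log2 response and that of 1A wild type. For the Eed knockout, 2 of 8 members differed at 12 h, beside 11.2% of all genes, and 2 at 96 h, beside 27.3%. For the Ezh2 knockout, 1 differed at 12 h, beside 2.91%, and 1 at 96 h, beside 12.2%. For V19 wild type none differed at 12 h, beside 0.119%, and 1 at 96 h, beside 1.68%. At 12 h edgeR gave 1 member at an unadjusted p under 0.05, Pim1, and DESeq2 called 1. The member in each of the 96 h comparisons was Pim1: its response exceeded that of 1A wild type by 1.15 ± 0.10 in the Eed knockout (adjusted p = 3.8e-13), by 0.34 ± 0.10 in the Ezh2 knockout (adjusted p = 0.0149) and by 0.68 ± 0.10 in V19 (adjusted p = 1.8e-05). These 3 comparisons share the 1A wild-type libraries, in which Pim1 was highest at 0 h. At 96 h the Pim1 levels lay closer together than at 0 h, at 94.7 ± 2.4 CPM in the Eed knockout, 94.4 ± 5.3 CPM in the Ezh2 knockout, 128.3 ± 3.0 CPM in V19 and 114.1 ± 5.8 CPM in 1A wild type (SD, n = 3 each). The Ezh2 knockout difference was lost without its 0 h replicate 2 (0.31, adjusted p = 0.0508) or its 96 h replicate 3 (0.29, adjusted p = 0.069), with RUV values (0.29, adjusted p = 0.0529) and with no filter (0.34, adjusted p = 0.2995).
At 12 h Il6st stood out in the Eed knockout, its response lying below that of 1A wild type (-1.29 ± 0.24, adjusted p = 1.2e-04). Socs3 fell further in both knockouts than in 1A wild type, with differences of -0.41 ± 0.10 in the Ezh2 knockout (adjusted p = 0.0103) and -0.33 ± 0.10 in the Eed knockout (adjusted p = 0.0242). The Eed knockout difference in Socs3 was lost without Eed knockout 0 h replicate 1 or 2, Eed knockout 12 h replicate 3, 1A 0 h replicate 2 or 3 or 1A 12 h replicate 1 (adjusted p 0.0517 to 0.0795). It was also lost with RUV values, groups alone or no filter (adjusted p 0.118 to 0.258). Without the libraries apart, which left 1 Eed knockout library at 12 h, it was -0.32. With no filter the Ezh2 knockout difference was lost too (adjusted p = 0.326). At 96 h the sign was the other way in the Eed knockout, where the response of Socs3 was 0.33 ± 0.10 above that of 1A wild type (adjusted p = 0.00879; 0.174 with no filter). The 12 h difference of Lifr, 0.50 ± 0.16 in the Ezh2 knockout, missed the threshold (adjusted p = 0.0871) and passed it without Ezh2 knockout 12 h replicate 1 (0.60, adjusted p = 0.0314) and with DESeq2 (0.50, adjusted p = 0.0476), groups alone, the length trend removed or without the libraries apart (adjusted p 0.00652 to 0.0443). Pim1 passed at 12 h in the Ezh2 knockout with DESeq2 (0.29, adjusted p = 0.0331) and RUV values (0.35, adjusted p = 0.0482). In V19 it passed with DESeq2 (0.38, adjusted p = 0.0277). At 96 h Stat3 (0.29 to 0.33) passed in the Eed knockout with DESeq2. Both Stat3 and Lifr (-0.36 to -0.30) passed there with groups alone, the length trend removed or without the libraries apart. Pim3 (-0.44 and -0.43) passed at 96 h in the Ezh2 knockout with groups alone or without the libraries apart. The 12 h difference of Pim3 in the Eed knockout passed without its 12 h replicate 3 (0.68, adjusted p = 0.00939).

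**Figure D4:**
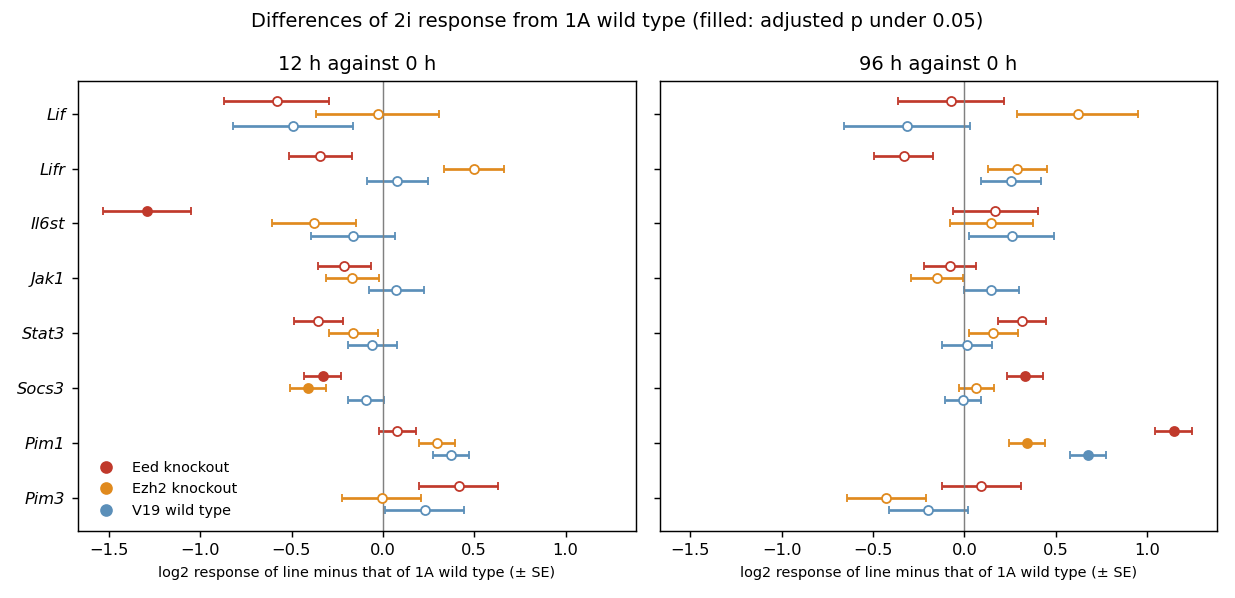
Difference between a line's log2 response to 2i and that of 1A wild type (x axis, ± SE) at 12 h (left) and 96 h (right) for each gene; filled points had an adjusted p under 0.05. The filled points are Il6st at -1.29 and Socs3 at -0.33 and -0.41 on the left, and Pim1 at 1.15, 0.34 and 0.68 and Socs3 at 0.33 on the right.

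Compared per kilobase of exon, the members' mean levels over all 60 libraries ran from the ligand to the targets: 1.61 CPM per kb for Lif, 5.06 for Lifr, 11.5 for Il6st, 14.7 for Jak1, 19.5 for Stat3, 37.0 for Socs3, 48.3 for Pim1 and 65.2 for Pim3. The ratio of the highest to the lowest group mean was 5.53 for Lif, 4.29 for Pim1, 3.51 for Lifr, 3.13 for Jak1, 3.07 for Il6st, 2.68 for Pim3, 2.09 for Socs3 and 1.59 for Stat3. When the 20 groups of a member were put in order of their mean, most neighbours overlapped: 18 of 19 neighbouring pairs for Lif, 15 for Lifr, 18 for Il6st, 15 for Jak1, 19 for Stat3, 17 for Socs3, 13 for Pim1 and 16 for Pim3. Among the gaps were those for Lif below the Eed knockout at 24 h (18.9 CPM), for Pim1 below 1A wild type at 0 h (239.7 CPM), for Pim3 below the Ezh2 knockout at 0 h (270.2 CPM), and for Il6st above the Eed knockout at 12 h (27.9 CPM).

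Of 44 other genes of the pathway, listed with earlier results of these data known, 41 passed the filter; the cytokine genes Cntf, Il6 and Il11 did not. At 96 h of 2i, 16 of the 41 were higher and 8 lower in the Eed knockout, 11 and 12 in the Ezh2 knockout, 14 and 11 in V19, and 16 and 13 in 1A wild type. In these comparisons 39.7%, 42.8%, 47.5% and 48.6% of all genes tested were called in either direction. In 1A wild type at 96 h, where 25.1% of all genes were higher and 23.5% lower, of 9 other targets 3 were higher and 6 lower, and of 13 other inhibitors 5 were higher and 4 lower. The median log2 fold change of the 41 in 1A wild type was -0.16 at 12 h, where 7 were higher and 14 lower and 40.8% of all genes were called, beside 0.02 over all genes tested. At 12 h this median was -0.15 in the Eed knockout, -0.10 in the Ezh2 knockout and 0.015 in V19. At 96 h it was 0.07 in the Eed knockout, 0.05 in the Ezh2 knockout, 0.03 in V19 and 8.4e-04 in 1A wild type.
Myc, the growth-promoting transcription factor gene, averaged 14.4 ± 1.1 CPM at 96 h in the Eed knockout, against 75.8 ± 9.1 CPM at 0 h (log2 fold change -2.39 ± 0.11), and 17.4 ± 2.1 CPM in 1A wild type, against 168.5 ± 4.3 CPM at 0 h (-3.28 ± 0.11). Pim2, the third Pim kinase gene, averaged 13.4 ± 2.3 CPM at 96 h in the Eed knockout, against 35.6 ± 2.2 CPM at 0 h (-1.41 ± 0.15), and 14.5 ± 2.4 CPM in 1A wild type, against 171.5 ± 5.8 CPM at 0 h (-3.57 ± 0.14). Gbx2, a homeobox gene that supports self-renewal, and Cntfr, the ligand-binding receptor chain for CNTF, also fell in all 4 lines. Gbx2 had log2 fold changes of -1.30 in the Eed knockout and -1.87 in 1A wild type, and Cntfr of -0.47 in the Eed knockout and -2.40 in 1A wild type. The Cntfr call in the Eed knockout was lost without its 0 h replicate 2 (-0.39, adjusted p = 0.0536). Junb, an AP-1 factor gene, had 55.9 ± 2.0 CPM at 96 h in the Eed knockout, against 59.4 ± 6.4 CPM at 0 h (adjusted p = 0.558), and a log2 fold change of -1.85 ± 0.12 in 1A wild type.
Among genes that rose, Stat2, a STAT factor of interferon responses, had a log2 fold change of 1.71 ± 0.14 at 96 h in the Eed knockout and 1.06 ± 0.15 in 1A wild type. Pramel7, a STAT3 target linked to the naive state, averaged 29.4 ± 2.5 CPM at 96 h in the Eed knockout, against 4.53 ± 1.98 CPM at 0 h (2.67 ± 0.21). Il6ra, the IL-6 binding chain that pairs with gp130, averaged 10.6 ± 1.9 CPM at 96 h in the Eed knockout, against 4.47 ± 1.73 CPM at 0 h (adjusted p = 0.0586 with RUV values), and 4.83 ± 1.02 CPM in 1A wild type, against 0.445 ± 0.173 CPM at 0 h. Among the other JAK kinase genes, Jak2 rose in 1A wild type to 9.92 ± 1.90 CPM, against 6.69 ± 1.30 CPM at 0 h (0.53 ± 0.20, adjusted p = 0.0235), while Tyk2 had 37.1 ± 5.0 CPM at 96 h and 39.4 ± 4.4 CPM at 0 h (adjusted p = 0.717). The Jak2 call was lost with RUV values (0.44, adjusted p = 0.0573) and with no filter (0.51, adjusted p = 0.0583). It was also lost without 1A 0 h replicate 2 (0.46, adjusted p = 0.0887), 0 h replicate 3 (0.43, adjusted p = 0.0915) or 96 h replicate 2 (0.37, adjusted p = 0.167). Tested as a difference from the response of 1A wild type at 96 h, 13 of the 41 were higher and 4 lower in the Eed knockout, beside 27.3% of all genes called. The counts were 4 and 4 in the Ezh2 knockout, beside 12.2%, and 1 and 1 in V19, beside 1.68%.

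**Figure D5:**
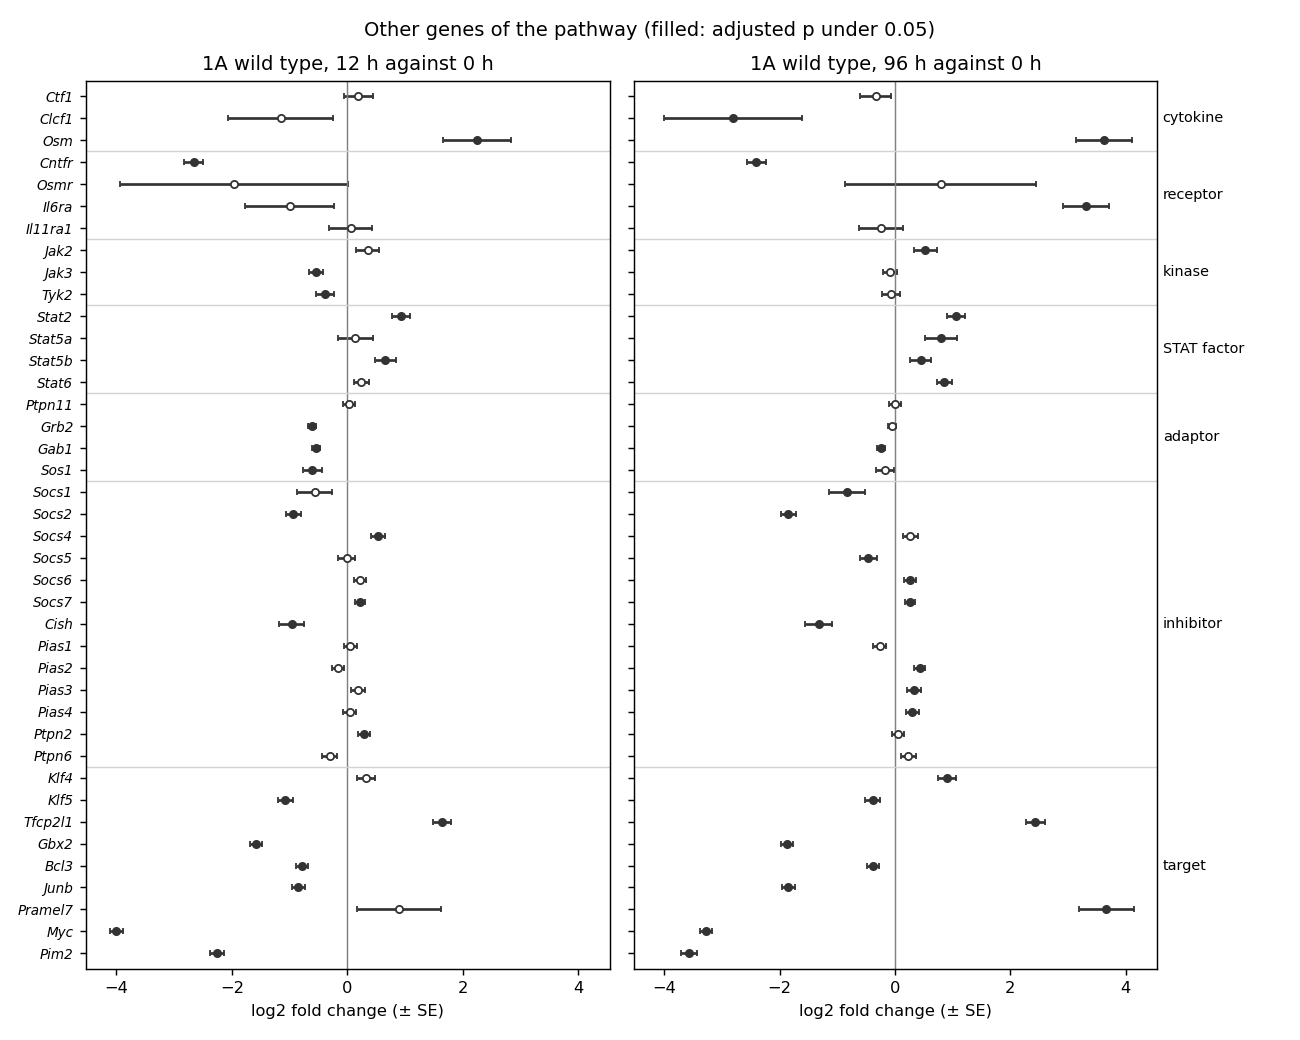
Log2 fold change (x axes, ± SE) of other pathway genes in 1A wild type at 12 h (left) and 96 h (right) against 0 h, grouped by role; filled points had an adjusted p under 0.05. At 96 h Myc and Pim2 lie at -3.28 and -3.57.

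As a description, the genes with the pattern most like 7 of the members over the 20 group means (Pearson's r of log2 CPM, prior count 2, among 10431 genes with a mean of at least 5 CPM) were Gpc1 for Lif (r = 0.95), Glis2 for Lifr (0.96), Adgra3 for Il6st (0.92), Clic4 for Jak1 (0.97), Ubqln4 for Socs3 (0.91), Hsp90ab1 for Pim1 (0.92) and Aplp1 for Pim3 (0.94). The group means share line, time and library depth. Among the members themselves the closest pairs by the same measure were Lifr with Socs3 (0.83), Stat3 with Socs3 (0.78) and Lif with Jak1 (0.76), and the most opposed were Lif with Pim3 (-0.79) and Jak1 with Pim1 (-0.73).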

How the data were processed

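PolyA RNA of 60 mouse embryonic stem cell libraries (4 lines, 5 times, 3 replicates) was sequenced as single 75-base reads and merged over both flowcells, per the labels' protocols. The submitters' processing notes name STAR 2.7.10b, featureCounts 2.0.3, MultiQC 1.14, DESeq2 and GRCm39, with no settings. The deposited values used here are raw counts per gene (60 columns matched to samples, none left over) and RUV-normalized counts, treated as a score since the authors' factors are not given and used as an alternative only. A deposited table of transformed counts was not used.

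Genes were filtered with filterByExpr (minimum count 10, total 15), scaled by TMM and fitted in 1 edgeR 4.0.16 quasi-likelihood model of 20 groups (40 residual degrees of freedom; R 4.3.3), with 28 contrasts and Benjamini-Hochberg adjustment over 15083 genes. A call is an adjusted p under 0.05. The SE is the log2 fold change divided by the square root of its F statistic. CPM use all assigned reads and TMM factors (0.828 to 1.08); intervals and spreads cover these samples only, and low counts limit precision for Lif most. The code was tested on simulated counts. Alternatives were RLE scaling, other filters, DESeq2 1.42.0, each comparison's groups alone, a replicate block, limma 3.58.1 on log2(RUV value + 1), leaving out each library, and, chosen after seeing the data, leaving out the 6 libraries that stood apart and removing a length trend. Named genes were the 8 members, pathway genes with the smallest adjusted p at 96 h (up to 4 a line) or a role set beside a result, and the genes most alike in pattern; genes that the rule named and that are withheld are not reported here. The members and lists were chosen with earlier results of these data known. No pair of replicates agreed within sampling noise (chi-square per degree of freedom 1.13 to 25.6).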

Additional observations from a re-analysis of the deposited data

Results flagged for a closer look

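The 7 results below are differences between a line's log2 response to 2i and that of 1A wild type that passed the test of the difference itself (edgeR quasi-likelihood test, adjusted p under 0.05 over all genes tested). All share the 1A wild-type libraries.

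Pim1 responded differently at 96 h in 3 lines, by 1.15 in the Eed knockout, 0.34 in the Ezh2 knockout and 0.68 in V19 wild type; in each, its 0 h level was lower than in 1A wild type. Il6st differed at 12 h in the Eed knockout by -1.29, in a group whose replicates 1 and 3 stood apart from the group mean. Socs3 differed at 12 h by -0.41 in the Ezh2 knockout and -0.33 in the Eed knockout, and at 96 h by 0.33 in the Eed knockout. Marker sums also differed between the lines, with higher primitive endoderm and trophoblast sums in the Eed knockout libraries. Their part in these differences was not tested.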

How the results depend on the processing

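Of 224 member values, no call was gained, lost or turned in sign for 224 with RLE scaling, 220 with DESeq2, 221 with a minimum mean of 1 CPM, 198 with no filter, 200 with each comparison's groups alone, 202 with the length trend removed, 204 without the 6 libraries that stood apart and 194 with the RUV-normalized values. The replicate numbers did not pair the samples (66 correlations of -0.147 to 0.202, median 0.005), and the block left 224 of 224 values on the same side of the threshold. Among values not called, signs changed for 4 with RLE scaling, 4 with DESeq2, 5 with the minimum of 1 CPM, 6 with no filter, 4 with groups alone, 13 with the length trend removed, 3 without the libraries apart, 12 with RUV values and 0 with the block.

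With the RUV-normalized values 8 called values turned in sign, all in the Eed knockout; the cause was not tested. Against 1A wild type at 96 h these were Jak1 (-0.15), Lif (-0.39), Lifr (0.074), Pim1 (0.71) and Pim3 (0.029), at 0 h Lif (-0.091) and Socs3 (0.089), and at 48 h against 0 h Pim1 (0.052).

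Only moves in the counts of members called that were large relative to the reported count are listed below. Smaller relative moves are not all listed, and the cause was not tested for either. With the length trend removed, for example, Lifr and Il6st were gained at 0 h between the Eed knockout and its parent. Stat3 was gained in the Eed difference at 12 h. The 1A wild-type response gained Il6st at 12 and 24 h, Jak1 at 24 and 48 h and Lif at 24 h. The larger moves were as follows. Eed knockout against 1A wild type had 1 with RUV values (5 as reported) at 0 h and 3 (6) at 96 h. Ezh2 knockout against 1A at 96 h (2) had 1 with groups alone and 0 with no filter. V19 against 1A at 96 h (0) had 1 with groups alone, no filter or without the libraries apart. The Eed difference at 12 h (2) had 1 with RUV values, groups alone or no filter, and at 96 h (2) had 4 with groups alone, the length trend removed or without the libraries apart, and 1 with no filter. The Ezh2 difference at 12 h (1) had 3 with DESeq2, 2 with RUV values, groups alone, the length trend removed or without the libraries apart, and 0 with no filter. At 96 h (1) it had 0 with RUV values or no filter and 2 with groups alone or without the libraries apart. The V19 difference at 12 h (0) had 1 with DESeq2. Of the 41 other pathway genes, RUV values gave 12 (26) and 16 (29) for the Eed knockout against 1A at 0 and 96 h, 2 (4) for Ezh2 and 3 (5) for V19 at 96 h; no filter gave 2 for Ezh2.

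Without 1 library, calls ranged over 17 to 21 in the Eed knockout, 19 to 22 in the Ezh2 knockout, 16 to 19 in V19 and 19 to 21 in 1A wild type. Against 1A wild type they ranged over 4 to 5 and 5 to 7 for Eed and 2 to 3 and 1 to 2 for Ezh2 at 0 and 96 h. The differences ranged over 1 to 2 and 2 to 2 for Eed and 1 to 2 and 0 to 1 for Ezh2 at 12 and 96 h. Other pathway genes ranged over 2 to 4 for Ezh2 and 3 to 5 for V19 at 96 h. Depth limits Lif most, at 15 to 243 reads a library. With CPM scaled by library totals alone, without TMM factors, 33 of the 160 group means of members moved by at least their SD.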
